A study of Mus musculus with 8 samples.

Results

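RIKEN clone names are provisional mouse gene names that end in Rik. They were given to full-length complementary DNAs collected before the gene behind the transcript had been studied. Some of these genes have since been renamed for a protein or RNA of known function, and others remain unstudied. Here the newborn epidermis is described through the genes that carry such a name as their only symbol in the authors' deposited table of differences, with 1110032A04Rik left out. There were 136 such genes with 160 probe sets, out of 1396 symbols with 1804 probe sets that had a single symbol in that table. The array holds 45101 probe sets.

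The samples were newborn epidermis, separated from the dermis, of C57Bl/6 mice. The dKO group of 4 samples carried the genotype IR-/-, IGF-1R-/-, that is, it lacked the insulin receptor and the insulin-like growth factor receptor, and the control group of 4 samples was wild type. Total RNA was read on Affymetrix Mouse 430 2.0 arrays, 1 array per sample, as a signal on a linear scale in array units. By their titles the replicates are biological, but pooled and single animals are not distinguished, so the spread between arrays may be partly technical. How the receptors were removed, and in which cells, is not stated in the labels.

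The insulin and insulin-like growth factor receptors are related tyrosine kinases that pass signals for growth, survival and metabolism into the cell. The epidermis renews itself from a basal layer of keratinocytes, which stop dividing, move outward and build the barrier. The authors' table was made by comparing dKO with control on these same arrays. The listed genes were therefore selected on the difference described here, and all values below are a description without a test of any gene.

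In the RefSeq annotation (GRCm38.p6), 6 of the genes overlap microRNA genes on the same strand. The mature microRNAs of 3 hosts are shown because the microRNA is often better known than its host. Mir205hg (4631405K08Rik), the host of the epithelial miR-205, was lower in dKO. The gene 2610318N02Rik, around miR-130b, was higher, and Ska2 (1110001A07Rik), around miR-301a, was lower. The mature microRNAs themselves have no value here. Capitals mark the seed, bases 2 to 8.
mmu-miR-205-5p, chr1:193507503-193507524, minus strand: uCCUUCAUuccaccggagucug
mmu-miR-130b-3p, chr16:17124071-17124092, minus strand: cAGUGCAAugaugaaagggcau
mmu-miR-301a-3p, chr11:87113054-87113076, plus strand: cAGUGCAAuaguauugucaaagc
The sequences of miR-130b-3p and miR-301a-3p share the seed AGUGCAA, while their hosts differed in opposite directions between dKO and control.

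Promoter sequence was available for 29 of the 46 genes higher in dKO and 53 of the 90 lower genes, as 250 bases before and 50 after the start in RefSeq (GRCm38.p6). The letters TATAAA, on either strand, were in 5 promoters of the higher genes (17.2%) and in 6 of the lower genes (11.3%), against 15.7% of the promoters of all 27025 genes. Those of the higher genes were 2310034C09Rik, Homer2, Plet1, Pxdc1 and Tmem229b. The letters CACGTG were in 17.2% and 9.43% of promoters of higher and lower genes against 8.09% of all. The shares were 3.45% and 5.66% against 5.95% for TGACTCA, and 3.45% and 0% against 4.05% for GTAAACA. The last 2 sequences are letters known from binding sites of AP-1 and FOXO factors, and a match is a description only. CACGTG is known as an E-box. Printed here are the promoters of 2310034C09Rik and Plet1, which are among the largest positive differences, with TATAAA in capitals, and that of Mir205hg, which holds none of the searched letters.
2310034C09Rik, chr16:88758597-88758896, plus strand: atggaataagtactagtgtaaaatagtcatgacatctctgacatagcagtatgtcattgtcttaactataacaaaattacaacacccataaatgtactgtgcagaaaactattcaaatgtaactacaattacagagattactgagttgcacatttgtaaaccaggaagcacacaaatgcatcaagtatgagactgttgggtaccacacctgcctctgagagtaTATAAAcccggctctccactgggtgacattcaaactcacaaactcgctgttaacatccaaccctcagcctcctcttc
Plet1, chr9:50494275-50494574, plus strand: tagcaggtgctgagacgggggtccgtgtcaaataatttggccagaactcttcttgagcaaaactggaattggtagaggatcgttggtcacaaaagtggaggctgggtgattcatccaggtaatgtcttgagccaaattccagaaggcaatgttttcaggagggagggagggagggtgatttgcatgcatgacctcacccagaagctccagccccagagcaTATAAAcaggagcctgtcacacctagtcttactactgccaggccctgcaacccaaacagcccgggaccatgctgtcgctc
Mir205hg, chr1:193510161-193510460, minus strand: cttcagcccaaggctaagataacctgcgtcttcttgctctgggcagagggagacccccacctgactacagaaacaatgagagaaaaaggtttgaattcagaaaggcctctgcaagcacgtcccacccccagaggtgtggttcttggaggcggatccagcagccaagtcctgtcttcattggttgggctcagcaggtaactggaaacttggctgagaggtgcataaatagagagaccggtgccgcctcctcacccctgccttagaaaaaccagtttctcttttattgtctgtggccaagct
The match starts 27 bases before the start of 2310034C09Rik and 30 bases before that of Plet1.

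All 8 arrays had the same 2% trimmed mean of 250 and median signals of 40.7 to 51.7. The brightness of Insr, the insulin receptor gene, was 71.9, 87.6, 50.7 and 80.9 in dKO 1 to 4 and 301.9, 309.6, 226.6 and 176.1 in control 1 to 4. Of 4 probe sets of Igf1r, 3 were lower in dKO by log2 differences of -0.98 to -0.65 and 1 was higher by 0.88. The first component of all arrays (42% of the variance) placed dKO 4 at 4.52, nearest to the controls, and the other dKO arrays at 30.7 to 63.8, against -41.7 to -24.2 for controls. Markers of cell types were counted only where the authors' table names them, so they too were listed for a difference on these arrays. Markers outside that table are left out, and the sums are no measure of cell number. Summed signals of 9 activated keratinocyte genes were 56440.5 to 110146 in dKO and 8277 to 22963 in controls. In the limma fit 9 of 9 were past the threshold, against 2.25% of all tested probe sets. The count was 5 of 7 for myeloid, 1 of 4 for fibroblast and 0 of 4 for Merkel cell genes, and nothing is read from these counts. Hair shaft and inner root sheath genes (10 of 12 named) summed to 1188 to 4612 in dKO and 5146 to 29806 in controls. For sebocyte genes (4 of 7 named) the sums were 206 to 380 against 1309 to 3850. They were 443 to 1696 against 2221 to 3538 for myeloid genes (7 of 10 named). For lymphocyte genes (3 of 6 named) they were 86.0 to 229 against 418 to 537. Sums of fibroblast genes (4 of 10 named) were 2441 to 3991 against 1516 to 2147. Those of erythroid genes (2 of 4 named) were 164 to 456 against 43.3 to 70.6. Those of Merkel cell genes (4 of 6 named) were 87.8 to 121 against 169 to 388. Tyrp1, the melanocyte gene named (1 of 4), read 628.8 to 1237.1 against 336.7 to 809.8. The authors' table named 0 genes of the endothelial and muscle lists, which does not show that these genes or cells are absent. No counted marker was at 0. The sums of the named keratinocyte genes were high on every array, which does not show that each gene was bright. Krt15, the basal marker named (1 of 7), read 2910 to 4922 in dKO and 8106 to 13338 in control. Suprabasal genes (3 of 9 named) summed to 7446 to 13922 and 7332 to 8666. These shifts accompany every gene group below, and their part in the values was not tested. In bulk samples, fewer cells of a type and less RNA per cell cannot be told apart.

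By its brightest probe set, 46 genes (33.8%) had a higher mean log2 signal in dKO and 90 genes (66.2%) a lower one. Counted by probe set, 56 of 160 (35%) were higher and 104 (65%) lower. The remaining 1643 probe sets with a single symbol in the authors' table had 747 (45.5%) higher and 896 (54.5%) lower. The median log2 difference was 0.85 over the higher genes (0.27 to 4.68) and -0.87 over the lower genes (-3.14 to -0.41), against -0.068 over all 45032 tested probe sets. At least 2-fold differences were found for 18 higher and 29 lower genes, and at least 4-fold for 3 and 4. There were 15 genes under 1.5-fold.

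The groups did not overlap for 96 of 136 genes (70.6%), 30 higher and 66 lower, where 9.37% of all tested probe sets did not overlap (3.44% higher, 5.93% lower). In limma's fit over all tested probe sets, with Benjamini-Hochberg adjustment, 57 of the 136 genes had an adjusted p under 0.05, 18 of them higher and 39 lower. Over the 160 probe sets the count was 64, 20 higher and 44 lower, against 2.25% of all tested probe sets (0.993% higher, 1.25% lower). Nothing is read from these shares, since the genes were listed for this difference. With each array centred on its median in place of the deposited scaling, the probe sets split into 26 higher and 28 lower. Without the intensity trend in eBayes 3 passed, 2 higher and 1 lower. When 1 array was left out, the count ran from 23 without control 1 and 27 without control 2 to 75 without dKO 4. It was 33 without dKO 2, 32 without dKO 3 and 33 without control 3. Of the 57 genes, 18 stayed past the threshold whichever single array was left out.

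**Figure D1:**
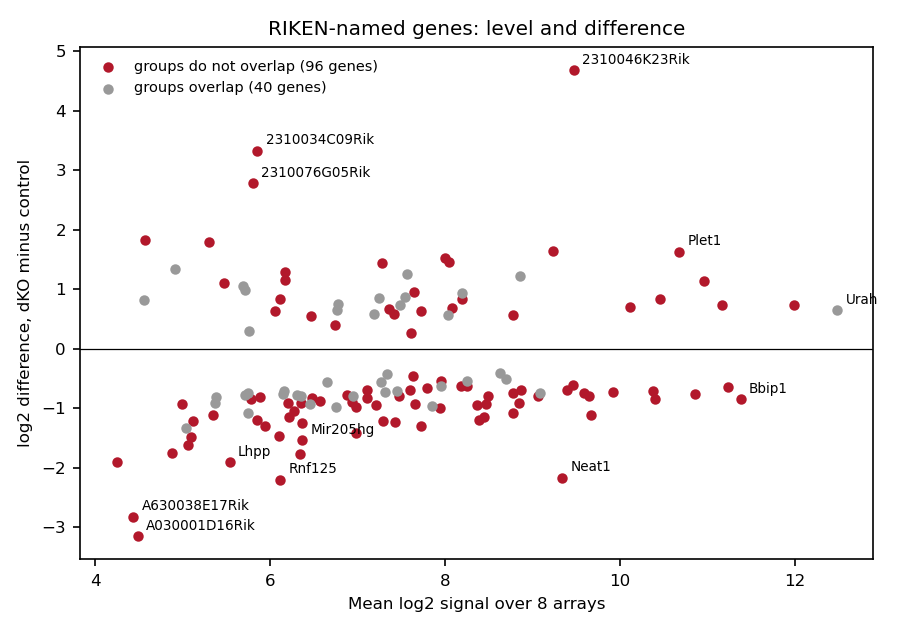
Each point is 1 of the 136 genes, with its mean log2 signal over 8 arrays on the x axis and its log2 difference, dKO minus control, on the y axis. Red points are the 96 genes whose groups do not overlap. The largest positive difference is 4.68, and the 2 largest negative differences, -3.14 and -2.82, belong to dim genes, while Neat1 at -2.16 is bright.

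The current names divide the genes as follows. RefSeq's mouse genes matched 101 of the 136 names, 73 of them under another current symbol and 28 still under the clone name, and 35 were not found. The found genes were annotated as 83 protein-coding genes, 17 long non-coding RNAs and 1 other RNA. Of the protein-coding genes 29 were higher and 54 lower. Of the genes not found 12 were higher and 23 lower, and these have no name or role below. A value under a current name comes only from probe sets that the authors listed by clone name. Other probe sets of the same gene, under its current symbol or not listed, were not read. The value may therefore not stand for the whole gene. A function is known for 49 genes. By role, 17 genes belonged to membrane and signalling (8 higher, 9 lower), 13 to enzymes (3 and 10), 5 to cytoskeleton and cilia (0 and 5), 15 to nucleus and RNA (2 and 13) and 18 to non-coding RNA (5 and 13). The other 68 were placed as without a known function (28 and 40), and they include the 35 names not found. Some genes within a role, such as Smim3, also lack a known function. This grouping by role was made after the values had been seen.

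**Figure D2:**
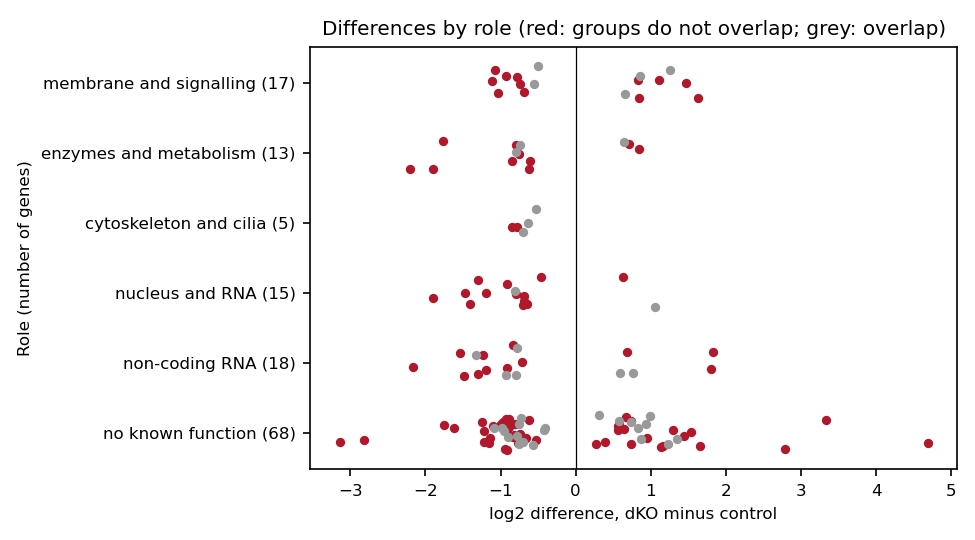
Points are the 136 genes by role on the y axis, with the log2 difference, dKO minus control, on the x axis. All 5 genes of cytoskeleton and cilia and 13 of 15 genes of nucleus and RNA lie on the lower side, while membrane and signalling genes lie on both.

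Among genes of the membrane and of signalling, the higher ones were led by surface proteins. Signals are given for replicates 1 to 4 of each group in that order, and means carry the SD of 4 arrays. Plet1 (1600029D21Rik), a surface glycoprotein that marks progenitors of the upper hair follicle in mouse, had signals of 2698.2, 3041, 4239.1 and 1969.8 in dKO and 947.6, 731.7, 785.2 and 1354.3 in control. Each dKO array lay above each control array, the lowest dKO array being replicate 4 and the highest control also replicate 4. The means were 2987 ± 947 and 955 ± 282, a log2 difference of 1.63 (SE 0.23). A second probe set of Plet1 gave 1.53, and the last, far dimmer, gave 0.47 with overlapping groups. Smim3 (2010002N04Rik), a small membrane protein, read 617.9, 405.5, 666.4 and 226 in dKO against 181.8, 117.8, 213.7 and 140.6 in control. The groups did not overlap, with dKO 4 closest to the controls, and the log2 difference was 1.47 (SE 0.30). Ly6m (2010109I03Rik), of the Ly6 family of surface proteins, read 497.5, 261.5, 383.7 and 149.3 in dKO and 104.8, 111.8, 128.9 and 150.4 in control. Here dKO 4 lay just below control 4, so the groups overlapped, with a log2 difference of 1.26 (SE 0.30).

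Dram1 (1200002N14Rik), a lysosomal membrane protein induced by p53 that acts in autophagy, had signals of 81.4, 60.2, 87.8 and 42.4 in dKO and 41.3, 41.4, 28 and 17.4 in control. The groups came close without overlapping, dKO 4 reading just above control 2, and the log2 difference was 1.11 (SE 0.38). Slc52a3 (2310046K01Rik), a riboflavin transporter, read 283.3, 175.2, 216.2 and 160.7 against 115.3, 79.4, 95.4 and 185.4. Control 4 was above dKO 2 and dKO 4, and the log2 difference was 0.85 (SE 0.26). Homer2 (9330120H11Rik), a scaffold protein that links receptors to calcium release, read 525.3, 322.2, 416.3 and 333.8 against 182.9, 216.5, 232.2 and 250.1. All dKO arrays were higher, by 0.84 on the log2 scale (SE 0.17), and dKO 1 was the highest. Relch (2310035C23Rik), a partner of Rab11 in cholesterol transport, read 83.3, 101.4, 120.3 and 71.8 against 59.5, 42.5, 45.6 and 62.7, a log2 difference of 0.83 (SE 0.26) without overlap. Rictor (4921505C17Rik), the defining subunit of mTOR complex 2 downstream of the insulin receptor, falls outside the naming rule and was chosen after its values were seen. It read 131.1, 143.4, 162.9 and 113.2 in dKO and 85.7, 66, 80.2 and 122.9 in control, with dKO 4 below control 4 and a log2 difference of 0.66 (SE 0.22).

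The lower genes of this role included regulators of phosphatase, nucleotide exchange and innate immune signalling. Ppp2r3a (3222402P14Rik), a regulatory subunit of protein phosphatase 2A, had signals of 441, 614.3, 541 and 639.8 in dKO and 1324.7, 1340, 1397 and 819.2 in control. Control 4 was well below the other controls and still above every dKO array. The means were 559 ± 89.1 and 1220.2 ± 269, a log2 difference of -1.11 (SE 0.18), and its other probe sets gave -1.29 and -1.28, also without overlap. Arhgef26 (4631416L12Rik), a guanine nucleotide exchange factor, read 228.2, 373.2, 222.9 and 443 against 759.1, 479.8, 902.7 and 505.1. The groups did not overlap, dKO 4 lying nearest to control 2, and the log2 difference was -1.08 (SE 0.25). Tril (1200009O22Rik), a leucine-rich repeat protein that acts with Toll-like receptors, read 36.8, 67.3, 49.9 and 68.8 against 112, 132.1, 130.5 and 78, a log2 difference of -1.04 (SE 0.27) without overlap. The other 6 lower genes lay between -0.93 and -0.51. They were Parm1, a mucin-like membrane protein, Aagab, which helps assemble clathrin adaptor complexes, Lrrc8b, a subunit of volume-regulated anion channels, Tmem131l, Catsperz, a part of the sperm calcium channel, and Cnst, a connexin transport factor.

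Of the 13 enzymes, 10 were lower in dKO. Rnf125 (C730049O14Rik), an E3 ubiquitin ligase that acts on the RNA sensor RIG-I, had signals of 15.5, 49.9, 40.3 and 34.9 in dKO and 200.6, 114.1, 110.6 and 191 in control. All dKO arrays lay under all controls, with dKO 1 the lowest, and means were 35.1 ± 14.5 and 154 ± 48.4. The log2 difference was -2.20 (SE 0.37), and -1.46 with 32 units added to each signal, a form that gives dim signals less weight. Lhpp (2310007H09Rik), a phosphatase that removes phosphate from histidine, read 6.9, 28.3, 38.3 and 44.6 against 75.9, 99.2, 89.2 and 95.9. Every dKO array was lower, but dKO 1 was very dim, and the log2 difference of -1.90 (SE 0.50) became -1.03 with 32 added. Aadacl2fm1 (C130079G13Rik), named for its likeness to arylacetamide deacetylase, read 30.8, 52.1, 76.2 and 30.5 against 153.8, 183.2, 119 and 146. The groups were apart, with a log2 difference of -1.76 (SE 0.31). Cgas (E330016A19Rik), the sensor of DNA in the cytosol, read 61.5, 51.4, 25.6 and 35.4 against 81.8, 68.3, 79.6 and 67.9. No dKO array reached the lowest control, and the log2 difference was -0.85 (SE 0.31).

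The other 6 lower enzymes lay between -0.80 and -0.60. They were Pomk, a kinase for sugars on dystroglycan, Pgap4, a glycosyltransferase for membrane anchors, Prxl2b, a prostaglandin synthase, Hykk, hydroxylysine kinase, Mdp1, a phosphatase, and Ldah, a lipid droplet hydrolase. Higher enzymes numbered 3. Urah (1190003J15Rik), which converts 5-hydroxyisourate made from uric acid, was the brightest of all 136 genes with signals of 10098.4, 7058.4, 7756.3 and 4739.7 in dKO and 4006.3, 4608.5, 6236.6 and 3767.3 in control. Control 3 exceeded dKO 4, so the groups overlapped, and the log2 difference was 0.65 (SE 0.21). Pde12 (E430028B21Rik), a phosphodiesterase of mitochondria that trims short adenylate chains, read 1907.5, 2114.7, 2282.9 and 1360.7 against 989.3, 929.6, 999 and 1312.4. The dKO arrays were all higher, though dKO 4 only just above control 4, and the log2 difference was 0.84 (SE 0.16). Its dimmer probe sets gave smaller differences, 0.60 with overlapping groups and 0.46 without overlap. Mindy3, a deubiquitinase, gave a log2 difference of 0.71, and 0.89 with overlapping groups in a dimmer probe set.

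**Figure D3:**
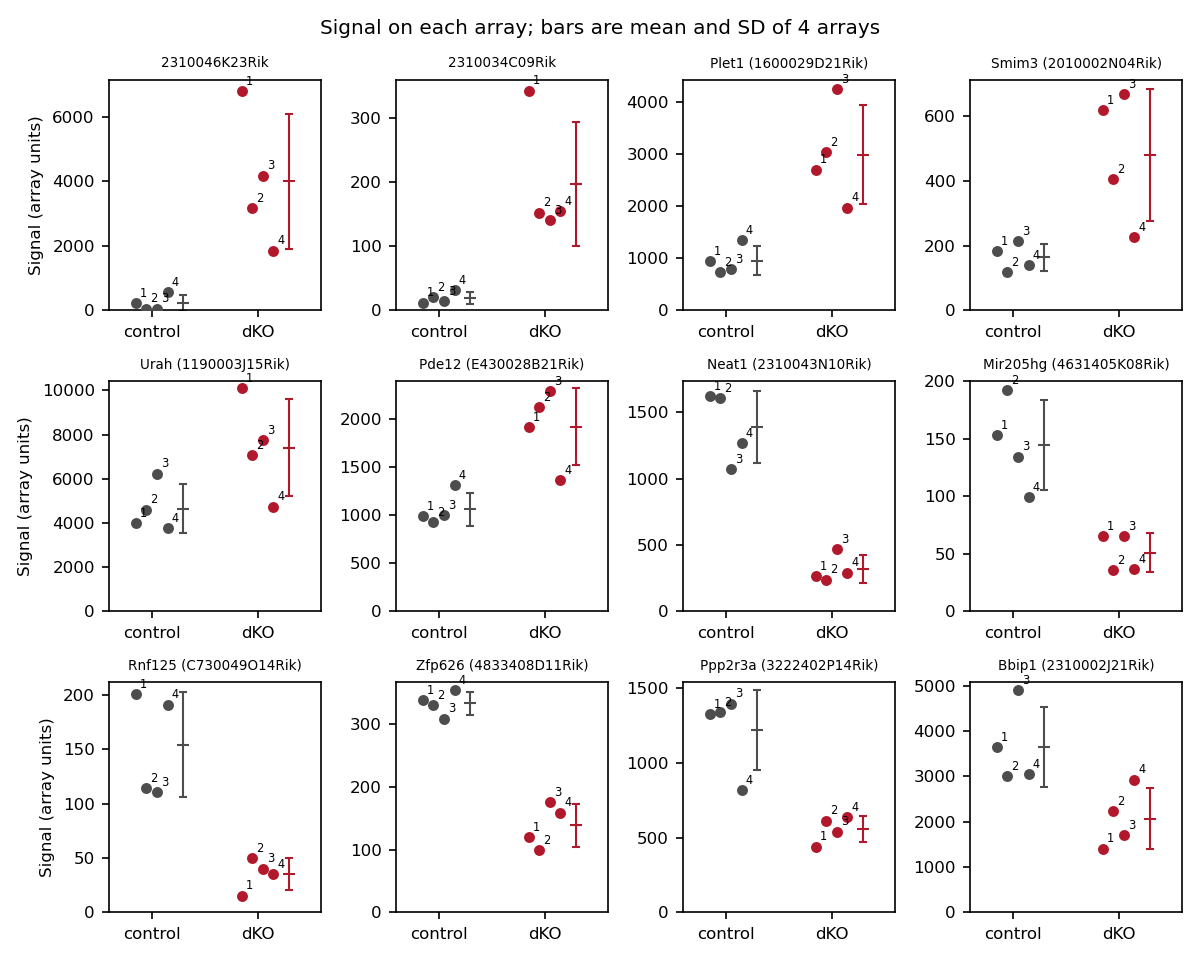
Signal in array units on the y axis for 12 of the genes in control (grey) and dKO (red), with 1 numbered point per array and bars for the mean and SD of 4 arrays. In Plet1, Smim3 and Pde12 dKO 4 is the lowest dKO array, and Neat1, Zfp626 and Ppp2r3a show dKO arrays wholly under the controls.

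All 5 genes of cytoskeleton and cilia were lower in dKO. Bbip1 (2310002J21Rik), a small subunit of the BBSome that carries proteins into cilia, was the brightest of them with signals of 1403.8, 2227.7, 1702.8 and 2923.7 in dKO and 3645, 3000.7, 4902.6 and 3043.1 in control. The dKO arrays were all lower, dKO 4 only just, and the log2 difference was -0.85 (SE 0.22). Shtn1, which couples actin to adhesion in growing neurites, Ccdc181, Ska2 (1110001A07Rik), which ties kinetochores to spindle microtubules, and Cfap97 lay between -0.79 and -0.53. The Ska2 signals were 154.7, 180.9, 240 and 231.6 in dKO and 361.2, 366.6, 214.8 and 313.2 in control, where control 3 fell among the dKO arrays.

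In the nucleus and RNA group, 13 of 15 genes were lower in dKO, and 7 of these are zinc finger genes. C2H2 zinc finger proteins of this family, many with a KRAB domain, bind DNA and often silence repeats. The 7 clone names stand for 6 current symbols, since 4833408D11Rik and 7630402I04Rik both match Zfp626. All 7 were lower, with log2 differences of -1.47 to -0.65 and a median of -1.19. Many Zfp genes resemble each other closely, so a probe set may read more than 1 of them. Zfp626 (4833408D11Rik) had signals of 120.4, 99.5, 175.3 and 159.1 in dKO and 338.6, 330.2, 308.7 and 354.5 in control. Every dKO array was under every control, the means were 139 ± 34.8 and 333 ± 19.1 and the log2 difference was -1.30 (SE 0.18). The second clone of Zfp626, 7630402I04Rik, was dimmer, at 39.7, 43.4, 30 and 40.9 against 76, 86, 90.9 and 96.9, and again without overlap, by -1.19 (SE 0.25). Zfp266 (5730601F06Rik), on chromosome 9, was bright, at 1710.5, 1844.7, 2005.4 and 2153.2 against 3303.8, 3097.6, 2801.1 and 2871.6. Its spread within groups was small, with means of 1928 ± 192 and 3019 ± 228 and a log2 difference of -0.65 (SE 0.11), and 2 further probe sets gave -0.57 and -1.04.

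Zfp846 (2210010B09Rik), separated from Zfp266 by 2 annotated genes, read 34.5, 57.2, 75.7 and 56.1 against 101.7, 111.8, 106.3 and 88.2. Its dKO arrays were all lower, by a log2 difference of -0.92 (SE 0.26). Zfp935 (8430426H19Rik), on chromosome 13, read 36.5, 50.9, 31.5 and 49.2 against 112.5, 95.1, 134.3 and 117.6, a difference of -1.47 (SE 0.25) on a probe set whose suffix, _x_at, warns that it can bind related transcripts. Zfp866 (D330038O06Rik), on chromosome 8, read 62.4, 58.1, 103.3 and 96.2 against 198.9, 269.3, 176.1 and 188.8. The groups stood apart by -1.41 (SE 0.23). Zfp946, on chromosome 17, gave -0.69.

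The remaining nuclear genes had varied roles. Mei4 (4930486G11Rik), needed for DNA breaks in meiosis, was among the dimmest described, at 25.8, 10.7, 1.6 and 21 in dKO and 26.4, 43.2, 39.3 and 40.1 in control. Although the groups did not overlap, dKO 3 read 1.6 units, and the log2 difference of -1.90 (SE 0.77) became -0.59 with 32 added. Creb5 (9430076C15Rik), a leucine zipper transcription factor, read 19.2, 32.9, 30.1 and 51.8 against 82.7, 50.7, 40.8 and 54.1. The groups overlapped through dKO 4, at a log2 difference of -0.81 (SE 0.37). Epop (E130012A19Rik), which joins elongin to Polycomb complex PRC2, was higher at 140.3, 64.2, 50.9 and 65.9 against 56.2, 38.3, 42.8 and 17.7. Control 1 exceeded dKO 3, and the log2 difference was 1.05 (SE 0.41). Ddias, a suppressor of apoptosis after DNA damage, was also higher, at 0.63. Cipc (2310044G17Rik), an inhibitor of the circadian factor CLOCK, was chosen after its values were seen. It read 412.2, 351.9, 345.2 and 366.5 in dKO against 547.2, 703.6, 692.2 and 457.9, with no overlap and a log2 difference of -0.68 (SE 0.15), and its second probe set gave -0.79. Fam111a, a protease at replication forks, Luc7l3, a splicing factor, and Tefm, which extends transcription in mitochondria, lay between -0.79 and -0.46.

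Of 18 non-coding RNAs, 13 were lower. Neat1 (2310043N10Rik), the RNA around which paraspeckles form in the nucleus, was bright and well separated, at 265.4, 240, 469.9 and 292.2 in dKO and 1622.3, 1607.1, 1069.2 and 1263.9 in control. The highest dKO array, replicate 3, was far under the lowest control, also replicate 3. The means were 317 ± 104 and 1391 ± 271, a log2 difference of -2.16 (SE 0.20), and -2.05 with 32 added. It was 1 of 3 genes, with 2310034C09Rik and 2310076G05Rik, that passed the threshold in limma also when the spread was not modelled by intensity. Mir205hg (4631405K08Rik), whose microRNA and promoter are printed above, read 65.2, 35.7, 65.7 and 36.5 against 152.9, 192.3, 134.4 and 99. All dKO arrays were below control 4, the lowest control, and the log2 difference was -1.53 (SE 0.29). Mir99ahg (2810055G20Rik), host of the miR-99a cluster, read 26.5, 35, 47.4 and 54.4 against 87.9, 93.9, 118 and 89.4. The groups were apart by -1.30 (SE 0.28), and by -1.26 in its second probe set.

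Oip5os1 (1700020I14Rik), known as Cyrano, a conserved RNA that triggers decay of miR-7, was chosen after its values were seen. It read 802.4, 682, 649.3 and 924.5 in dKO and 1293, 1204.9, 1186.7 and 1296.4 in control, apart by -0.72 (SE 0.12) and by -0.86 in its second probe set. The other lower RNAs lay between -1.48 and -0.78. They were Tnfsf13os, D130051D11Rik, 2310067E19Rik, B230354K17Rik, 4632427E13Rik, 1700097N02Rik, Rnf227, 2810013P06Rik and Cep83os. Rnf227 (A030009H04Rik) is counted here only by its RefSeq annotation as a long non-coding RNA, although its symbol has the form of a protein gene, like Rnf125. The 5 higher RNAs ranged from 0.59 to 1.83 and were 1700086L19Rik, 9530059O14Rik, 2010204K13Rik, 2310043M15Rik and 1500015A07Rik. In RefSeq, 4632427E13Rik is separated from Ddias on chromosome 7 by 1 annotated gene, and this pair differed in sign, at -0.93 and 0.63.

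The genes placed as without a known function, among them all names not found in RefSeq, held the largest differences. The gene 2310046K23Rik, not found in RefSeq, had signals of 6801.3, 3180.2, 4180.7 and 1852 in dKO and 231.4, 56.8, 52 and 562.2 in control. Controls 1 and 4 were several times brighter than controls 2 and 3, and dKO 4 was the lowest dKO array, yet the groups did not overlap. The means were 4004 ± 2095 and 226 ± 239, a log2 difference of 4.68 (SE 0.65), and 4.30 with 32 added. The protein-coding gene 2310034C09Rik read 342.4, 152.4, 140.6 and 154.2 against 12, 20.6, 14 and 31.9. It was dim in all controls and, with dKO 1 more than 2-fold above the other dKO arrays, gave 3.33 (SE 0.38), or 2.09 with 32 added. Likewise 2310076G05Rik, not found in RefSeq, read 157.1, 153.6, 200.2 and 96.5 against 13.7, 20.5, 32.2 and 22.6. The groups were wide apart, by 2.79 (SE 0.33), or 1.74 with 32 added.

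Among other genes not found in RefSeq, 1200016E24Rik read 946, 1366.7, 1470.3 and 667.9 in dKO and 644.4, 235.4, 331.2 and 261.9 in control. Control 1 came close to dKO 4 from beneath, and the log2 difference was 1.65 (SE 0.31). A730054J21Rik read 179, 630.9, 558.4 and 573 against 157, 177.3, 141.3 and 132.5. Here dKO 1 stood near the controls and the other dKO arrays well above them, with a log2 difference of 1.53 (SE 0.33). 2310058N22Rik read 83.9, 127.4, 216 and 70.2 against 49.4, 49.9, 38.5 and 46.9, higher on all dKO arrays by 1.30 (SE 0.33). In contrast E030016H06Rik was lower, at 33.9, 51.2, 66.5 and 70.6 against 137.1, 159, 129.5 and 92.6, by -1.25 (SE 0.28) with no overlap.

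N4bp2l1 (2410024N18Rik), a protein with a nucleotide-binding fold and no settled role, read 526.1, 197.2, 219.2 and 193 in dKO and 100.4, 97.2, 67.5 and 120.4 in control. The dKO arrays were all higher, dKO 1 most, and the log2 difference was 1.45 (SE 0.30). Lgalsl (1110067D22Rik), a protein related to galectins, was among the 5 brightest, at 6928.3, 4912.1, 4418.3 and 4982.6 against 2768.3, 2466.8, 3503 and 4006.7. No control reached the lowest dKO array, and the log2 difference was 0.74 (SE 0.17). The gene 1810037I17Rik was also among the brightest, at 3760.7, 2965, 3294.3 and 2123.6 against 1856.4, 1983.3, 1889.5 and 1437.3, higher on every dKO array by 0.74 (SE 0.17). The miR-130b host 2610318N02Rik, chosen after its values were seen, read 98.6, 130.6, 93.4 and 112.5 against 59.3, 38.3, 44.2 and 54.1. Its groups did not overlap, with a log2 difference of 1.16 (SE 0.24).

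**Figure D4:**
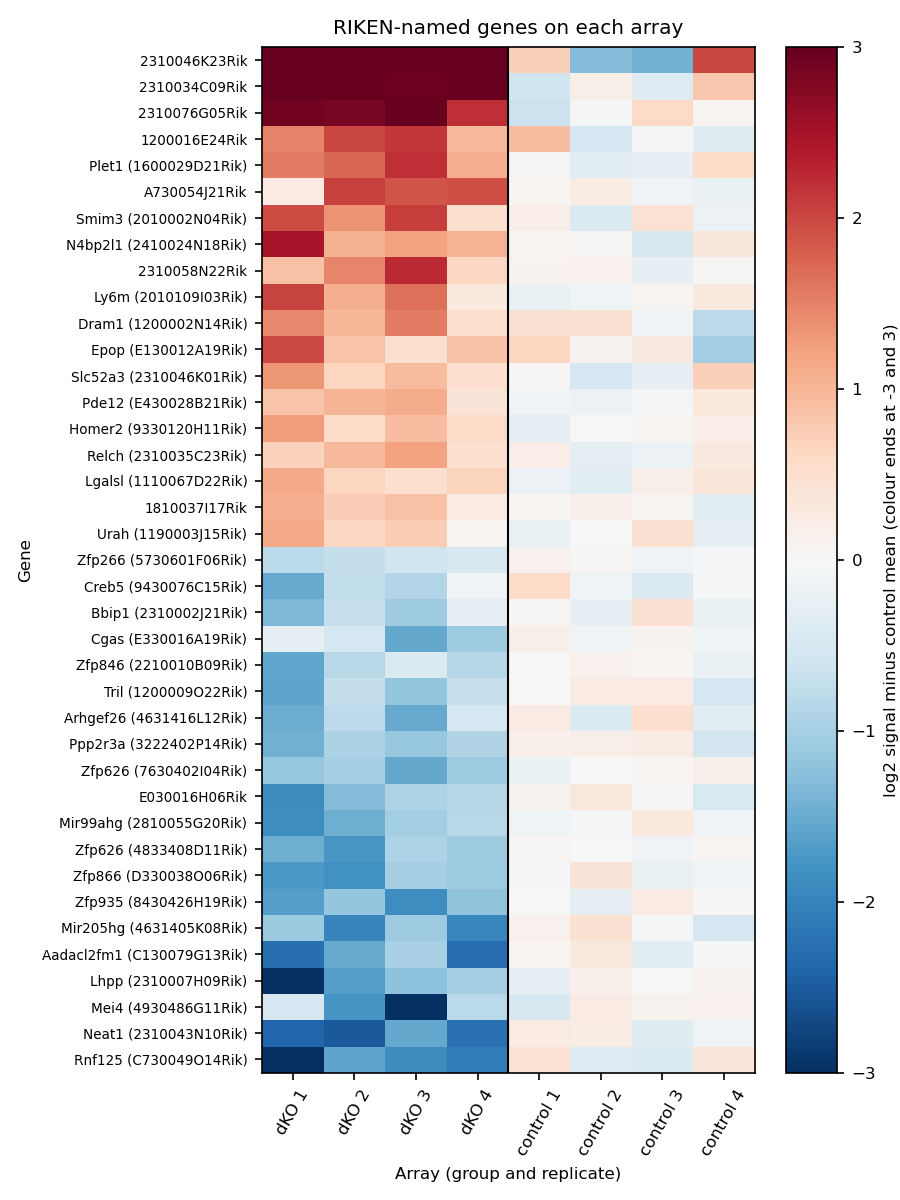
Rows are the 39 genes chosen by the naming rule, ordered by log2 difference, and columns the 4 dKO and 4 control arrays. Colour gives the log2 signal minus the mean of the controls, red above and blue below, ending at -3 and 3. Column dKO 4 is paler than the other dKO columns in many of the upper rows.

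The other 19 higher genes of this kind lay between 0.27 and 1.35. They were 4930523C07Rik, A130040M12Rik, Teddm3, Pxdc1, Ccdc71l, Tmem229b, Ccser1, 9130008F23Rik, Spats2l, Proser2, 9530006C21Rik, 9430098F02Rik, 5830445D09Rik, 1810055G02Rik, 4921511E18Rik, 4732496C06Rik, C230098O21Rik, Tmem248 and the miR-130b host. The symbols A130040M12Rik and 1200016E24Rik also appear in the authors' table in rows with several symbols, which were not used, so their probe sets may read related transcripts.

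The other 39 lower genes lay between -3.14 and -0.41. Renamed ones were Kansl1l, Fam234b, Smim5, Hsbp1l1, Znrd1as and Tmem229a. Listed by clone name were 6030451C04Rik, 2310035P21Rik, 2310033P09Rik, 6330403K07Rik, 2900054C01Rik, 0710001D07Rik, 9030411K21Rik, 6720475J19Rik, 5031439G07Rik, D330040H18Rik, 6720427H10Rik, 2610019N06Rik, 3830406C13Rik, 2010004M13Rik, 2010315B03Rik, 6030458C11Rik and 6720418B01Rik. So were 9930012K11Rik, 1810028F09Rik, D230044B12Rik, 9630010G10Rik, A630038E17Rik, A130009I22Rik, B930025B16Rik, 9530086O07Rik, 9130023H24Rik, 9530019H20Rik, C230085N15Rik, A430033K04Rik, 5830408B19Rik, 2610008E11Rik, 4930438A08Rik and A030001D16Rik.

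Level set how far a log2 difference could be read. The mean signal over 8 arrays had a median of 168 over the 136 genes, 26.0 to 6034, against 47.2 over all tested probe sets. There were 120 genes at or above the median log2 level of all probe sets, 5.45, and 16 below it. The lowest difference of all, in A030001D16Rik, came from such a dim gene, which read 20.9, 1, 21.9 and 7.1 in dKO and 61.9, 34.8, 59.2 and 154.6 in control. Its difference of -3.14 became -1.21 with 32 added. In the same way A630038E17Rik read 6.5, 9.8, 18.6 and 3.7 against 69.7, 42.9, 44.1 and 82.4, and -2.82 became -1.13. The dim gene 9530006C21Rik read 11.1, 27.6, 50 and 63.7 against 17.5, 27.9, 31.7 and 6.4 with overlapping groups, and its difference of 0.83 became -0.005 when dKO 4 and control 4 were left out. Over all genes, 32 added brought the median differences to 0.69 for higher and -0.68 for lower genes. The spread between dKO arrays, as the SD of log2 signals, had a median of 0.388 for higher and 0.392 for lower genes, against 0.281 and 0.280 between controls. Over all probe sets at or above the median level the medians were 0.238 in dKO and 0.221 in control.

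Each probe set had been listed by the authors for a difference on these arrays, so the direction within a gene is a description and no sign of stability. Of 19 genes with more than 1 probe set, 0 had probe sets that differed in sign. The range within a gene had a median of 0.20 and was under 0.5 for 14 genes. It was widest in 4930523C07Rik, from 0.71 to 1.94, in Plet1, from 0.47 to 1.63, and in Tmem229a, from -2.82 to -1.75. In 11 genes the groups did not overlap in any probe set. By contrast, the 2 probe sets of Urah, at 0.65 and 0.73, both overlapped.

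The arrays of a group did not carry the differences equally. Over the 46 higher genes, the median log2 signal minus the control mean was 1.13, 0.86, 1.00 and 0.57 on dKO arrays 1 to 4, and 0.032, -0.14, -0.044 and 0.16 on control arrays 1 to 4. Array dKO 4 was lowest and control 4 highest in its group. The lower genes gave -1.10, -0.93, -0.87 and -0.69 in dKO and 0.0069, 0.070, -0.027 and -0.018 in control. Among the higher genes, dKO 4 was the dKO array nearest to the controls for 30 of 46, and control 4 the control nearest to dKO for 24 of 46. For the 90 lower genes, dKO 4 was the nearest dKO array for 40, while control 3 was the nearest control for 30 and control 4 for 26. The activated keratinocyte sum followed the same order at its ends, with 56440.5 on dKO 4, the lowest dKO array, and 22963 on control 4, the highest control. In the myeloid and lymphocyte lists and in Krt15, arrays 4 also lay closest between the groups. The myeloid sum was 1696.4 on dKO 4, the highest dKO array, and 2221 on control 4, the lowest control. The lymphocyte sums there were 228.6 and 418.3. Hair sums differed from this, at 19891.8 and 29806.2 on controls 1 and 4 against 6387 and 5145.7 on controls 2 and 3. Further lists differed as well. Sebocyte and fibroblast sums on control 4, 3850.3 and 1516.3, lay farthest from dKO among the controls. The Merkel cell sum on dKO 4, 87.8, and Tyrp1 on dKO 4, 1237.1, lay farthest from the controls among the dKO arrays. The part of any list in these differences was not tested. Without both arrays numbered 4, the number of higher genes was 45 and of lower genes 91, and 74 probe sets passed the threshold.

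**Figure D5:**
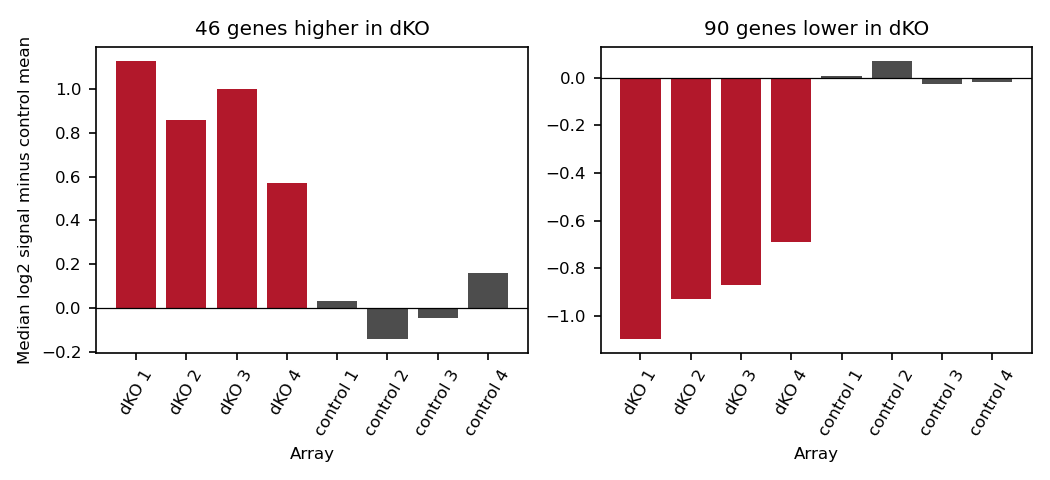
Bars give the median, over 46 higher genes (left) and 90 lower genes (right), of the log2 signal minus the control mean on each of the 8 arrays. The bar of dKO 4 is the shortest dKO bar in both panels, 0.57 and -0.69.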

How the data were processed

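The authors deposited linear intensity values for every probe set, 1 per array, for 4 dKO and 4 control samples. Per the submitters' processing notes, MAS5 and Partek were used, without a stated version or step. A check of the values gave a 2% trimmed mean of 250 on every array. The authors' deposited table, per the file headers, also holds a ratio and a signed fold, a p-value and an F statistic used as a score. These columns were not used, and gene symbols alone were read from it.

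The array has 45101 probe sets. After removal of 64 control probe sets and of 5 that read 0 on some array, 45032 were fitted as log2(signal) in limma 3.58.1 (R 4.3.3). The fit used lmFit with genotype as its term and eBayes with the prior spread following intensity, and adjusted p by Benjamini-Hochberg. It was tested on simulated data with changes placed in probe sets at or above the median level. There 47% of log2 changes of 1 and 95% of log2 changes of 2 were past the threshold, and 3.40% of calls were false. A gene with a smaller difference can therefore miss the threshold. A gene is represented by its probe set with the highest mean log2 signal. Standard errors are those of the fit. Current names came from the RefSeq gene table (GRCm38.p6) by symbol or synonym. The array files name no genome build, so coordinates are given for RefSeq sequences alone. No detection call was used, so the number of arrays and the brightness limit the precision.

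Values on every array are given for the 10 largest positive and 10 largest negative differences at or above the median level, the 5 brightest genes, any gene whose probe sets differ in sign, and up to 25 renamed genes of known function by size of difference. The members, lists and roles were chosen with earlier results of these data known. Alternatives were median centring, quantile normalization, 32 added before log2, a level filter, no intensity trend, robust eBayes, a replicate block, leaving out each array, leaving out both arrays numbered 4, and the mean over all probe sets of a gene.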

Additional observations from a re-analysis of the deposited data

Results flagged for a closer look

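In 4 of 78 groups of 4 arrays, over the 39 genes given on every array, the highest or lowest array lay far from the rest by Dixon's criterion, and chance flags about 1 in 20 groups. For 2310034C09Rik, dKO 1 read 342.4 and the other dKO arrays 140.6 to 154.2. For A730054J21Rik, dKO 1 read 179 and the others 558.4 to 630.9. For N4bp2l1 (2410024N18Rik), dKO 1 read 526.1 and the others 193 to 219.2. For Ppp2r3a (3222402P14Rik), control 4 read 819.2 and the other controls 1324.7 to 1397.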

How the results depend on the processing

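The number of RIKEN-named probe sets past limma's adjusted threshold was 64 in the reported fit and ranged from 23 to 75 when 1 array was left out. It was 3 without the intensity trend and 42 with a replicate block, and 54 with median centring, 58 with quantile normalization, 57 with 32 added, 73 with the level filter and 61 with robust eBayes. Over all probe sets the count was 1012, 353 to 1417 with 1 array left out, 60 without the intensity trend, 698 with the replicate block and 1525 without both arrays numbered 4. Median centring split that count into 607 higher and 322 lower, where the reported fit gave 447 and 565, and it moved the median difference of all probe sets by 0.125. The cause of these changes was not tested. The labels do not say whether replicate numbers pair the arrays. Over all tested probe sets, dim ones included, deviations from the group means correlated at -0.037 to 0.017 between arrays of the same number. Brighter probe sets alone were not examined.

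The split of 46 higher and 90 lower genes was the same under median centring, quantile normalization, 32 added and each single array left out. Since the genes were listed for a difference on these arrays, an unchanged split is no sign of stability. The level filter kept 42 and 78, and leaving out both arrays numbered 4 gave 45 and 91, with 9530006C21Rik at -0.005. Of the alternative values of the genes given on every array, 187 equalled the reported value, most of them under settings that leave a log2 difference as it is (no trend, robust eBayes, the level filter and the replicate block). Of the 474 others, 467 moved by less than the spread between replicates and 7 by more, all with 32 added, and 0 turned in sign. Differences of dim genes are limited by signals near background.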
